A study of Mus musculus with 6 samples.

Results

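The genes described are 9 that encode proteins of the Z-disc, the plate that anchors thin filaments and the ends of titin at each side of a sarcomere, and the sarcomeric actins: Csrp3, Ankrd2, Fhl1, Actn2, Ldb3, Tcap, Des, Acta1 and Actc1. They were chosen by gene symbol, as load-sensitive proteins and their actin partners, with the knockout and wild-type values of several of them already known. A probe set, the group of oligonucleotides that reads 1 transcript, was included if the annotation of the array design gave it exactly 1 symbol and that symbol was on the list. This rule found 12 of the 12488 probe sets on the array, for 9 of the 8251 genes with such a probe set, and no listed gene was missing. Fhl1 had 3 probe sets, Actc1 had 2 and the other genes had 1 each. Because the choice was made with these values in view, differences between the groups in these 9 genes are given as a description, and no p-value of theirs is used.

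RNA came from soleus, a postural hindlimb muscle that holds slow and fast fibres, of male mice. The 3 knockout samples were from mice lacking estrogen receptor beta (BERKO), the nuclear receptor encoded by Esr2, and their strain, age and the design of the deleted allele are not given in the sources used here. The 3 wild-type samples were from C57BL/6 mice. The receptor was missing throughout the animal, so an effect outside muscle cannot be told apart from one within it, and so cannot a difference in strain, since that of the knockout is not given. No sample was stretched or unloaded, so load-responsiveness itself was not measured. Whole muscle was used, so fewer cells of a type and less RNA per cell cannot be told apart.

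Z-disc proteins hold the contractile lattice in register and also take part in signalling when a muscle is stretched or loaded. LIM-domain and ankyrin-repeat proteins such as Csrp3 and Ankrd2 sit at the Z-disc or along titin, can also enter the nucleus, and are known to be induced in stretched or overloaded muscle. Sarcomeric actin genes are classical targets of serum response factor, which binds the CArG box and whose coactivators of the MRTF family are held in the cytoplasm by unpolymerised actin.

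The upstream sequences of 6 of these genes are shown because they set the genes with a CArG box beside the pair of stretch sensors whose values differed most between the groups. They are the 150 bases before the most upstream annotated start, 5′ to 3′, from RefSeq, build GRCm38.p6, with Acta1 at chr8:123894776-123894925 (minus strand), Actc1 at chr2:114052876-114053025 (minus strand), Ldb3 at chr14:34588682-34588831 (minus strand), Fhl1 at chrX:56779533-56779682 (plus strand), Ankrd2 at chr19:42035877-42036026 (plus strand) and Csrp3 at chr7:48848052-48848201 (minus strand). Capitals mark matches to the CArG box, and the rest is in lower case.
Acta1: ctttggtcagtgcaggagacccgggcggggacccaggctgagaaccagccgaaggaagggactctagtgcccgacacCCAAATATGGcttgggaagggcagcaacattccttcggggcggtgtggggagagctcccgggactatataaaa
Actc1: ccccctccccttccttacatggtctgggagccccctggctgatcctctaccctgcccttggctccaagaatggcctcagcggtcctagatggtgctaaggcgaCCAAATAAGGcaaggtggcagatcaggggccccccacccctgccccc
Ldb3: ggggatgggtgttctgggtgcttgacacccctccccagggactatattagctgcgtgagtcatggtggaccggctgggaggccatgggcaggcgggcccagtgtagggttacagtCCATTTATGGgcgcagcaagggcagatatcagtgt
Fhl1: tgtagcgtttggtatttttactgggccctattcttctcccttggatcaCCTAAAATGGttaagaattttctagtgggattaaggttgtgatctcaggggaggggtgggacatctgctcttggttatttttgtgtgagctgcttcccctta
Ankrd2: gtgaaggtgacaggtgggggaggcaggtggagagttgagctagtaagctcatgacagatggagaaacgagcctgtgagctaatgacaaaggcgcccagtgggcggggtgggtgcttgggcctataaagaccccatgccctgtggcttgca
Csrp3: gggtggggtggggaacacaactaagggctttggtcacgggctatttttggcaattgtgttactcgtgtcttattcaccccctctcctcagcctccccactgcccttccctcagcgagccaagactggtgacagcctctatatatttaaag
A CArG box stood in the promoter of 4 of the 8 genes with an entry, Acta1, Actc1, Ldb3 and Fhl1, against 1.63% of all 32851 promoters searched. The window searched, on both strands, ran from 250 bases before to 50 after the start. The match lay at bases -73 to -64 in Acta1, -47 to -38 in Actc1, -35 to -26 in Ldb3 and -102 to -93 in Fhl1. No match lay in this window of Csrp3, Ankrd2, Actn2 or Des, and Tcap had no entry. The MEF2 site matched in 0 of the 8, against 3.19% of all promoters. The muscle CAT element CATTCC matched in 1 (Acta1), against 14.7%, TATAAA in 4, against 13.6%, and the E-box CANNTG in 7, against 72.3%. The TATAAA matches lay at bases -29 to -24 in Ankrd2 and -7 to -2 in Acta1, after the start at 34 to 39 in Actc1, and on the opposite strand at -156 to -151 in Fhl1. With 1 promoter for each of 27025 genes, the shares were 1.59% for the CArG box, 3.29% for the MEF2 site, 14.7% for CATTCC, 14.2% for TATAAA and 72.1% for the E-box. None of the CArG matches overlapped another motif searched. These matches describe letters and do not show binding.

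Values are the deposited signal intensities on a linear scale, and each probe set has its own response, so levels are compared between arrays and not between genes. The arrays had been scaled to a common level by the authors, with a mean of 100.1 once the lowest and highest 2% were left out, and correlations between arrays ran from 0.958 to 0.971 over the probe sets. The single Esr2 probe set read 8.4, 3.9 and 6.2 in the knockout and 2.2, 3.2 and 1.3 in wild type, mostly below the floor of 7.8 used here, so the targeted gene did not check the labels. All 8 slow-fibre markers were above the filter described next. A probe set was tested if at least 3 of the 6 arrays, of whichever group, gave more than 39.4, the overall median, and 11 of the 12 member probe sets were, so each of the 9 genes had a tested probe set. Over the 6369 probe sets tested, 0 (0%) passed an adjusted p of 0.05 in limma. At an unadjusted p under 0.05 there were 334 (5.24%) over all, 179 higher (2.81%) and 155 lower (2.43%) in the knockout.

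Of the 9 genes, read by the brightest probe set of each, 7 had a higher mean of log2 values in the knockout and 2 a lower one, against 46.8% higher among all probe sets tested and 65.4% among the 1274 brightest, which include 7 of the 9. Their median log2 difference, knockout minus wild type, was 0.29, against -0.016 over all probe sets tested and 0.054 among those 1274, and it was 0.16 without wild-type replicate 1. The groups did not overlap, with every knockout array above every wild-type array, for 3 genes, where 5.45% of all probe sets tested did the same and 5.23% had the reverse (10.7% in either direction). Nothing about the 9 genes is read from these counts, since they were chosen with this contrast known. The differences were largest for the stretch sensors Csrp3 and Ankrd2 and for the actinin Actn2, and nearest to 0 for the cardiac actin Actc1.

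**Figure D1:**
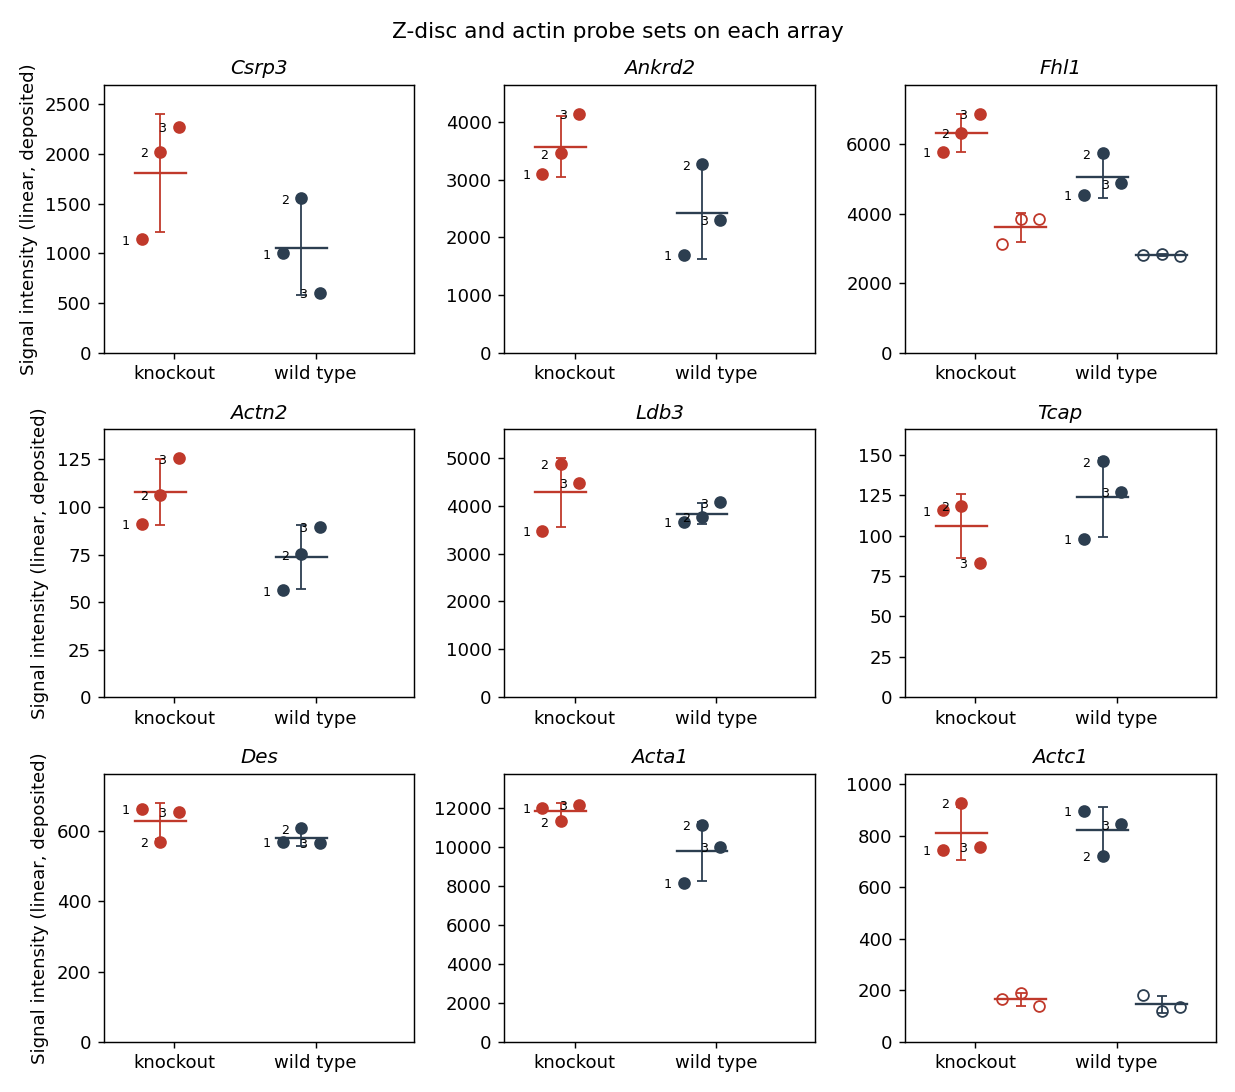
Signal intensity (linear, as deposited, axis from 0) of each gene on the 3 knockout and 3 wild-type arrays, with replicate numbers beside the points of the brightest probe set, and the mean and SD as lines; open circles are the other tested probe sets of Fhl1 and Actc1. Every knockout array is above every wild-type array for Fhl1, Actn2 and Acta1, while the groups overlap for the other 6 genes.

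Csrp3 encodes muscle LIM protein, a Z-disc protein that binds the titin cap and actinin and that slow muscle expresses strongly. Its probe set (103084_at) read 1144, 2022.5 and 2275 in the 3 knockout samples, against 1002, 1556 and 605.6 in the 3 wild-type samples. The groups overlapped, because knockout replicate 1 lay below wild-type replicate 2, although the knockout array was the higher one in 8 of the 9 possible pairs. The log2 difference was 0.83 ± 0.34 (SE). Csrp3 also had the widest spread of the 9 genes, with 3.76-fold between its highest and lowest array and a coefficient of variation of 32.7% in the knockout and 45.3% in wild type. Without wild-type replicate 3, the lowest array, the difference was 0.48.

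Ankrd2 encodes an ankyrin-repeat protein that binds titin in the I-band and, in mouse, is induced when muscle is stretched. Its probe set (97786_at) read 3105, 3455 and 4147 in the knockout, against 1700, 3271 and 2304 in wild type. Knockout values again overlapped with wild type at 1 point, knockout replicate 1 below wild-type replicate 2, and 8 of 9 pairs had the knockout higher. The log2 difference was 0.60 ± 0.21 (SE), and 0.37 without wild-type replicate 1. The knockout arrays were closer together, with a coefficient of variation of 14.9% against 32.7% in wild type.

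Fhl1 encodes a LIM protein of striated muscle that binds titin and whose gene is mutated in several human myopathies. Its brightest probe set (97498_at) read 5783, 6337 and 6884 in the knockout, against 4553, 5741 and 4879 in wild type. The second (97500_g_at) read 3137, 3854 and 3845 in the knockout, against 2799, 2838 and 2787 in wild type. Neither probe set overlapped between the groups, and their log2 differences were close, 0.33 ± 0.10 and 0.36 ± 0.10 (SE). In wild type the second was nearly constant, with a coefficient of variation of 0.950%, against 12.1% for the brightest on the same arrays. The third Fhl1 probe set (97499_at) read 0.5 to 1.8 on all 6 arrays, below the floor, and was not tested.

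Among the structural proteins of the Z-disc, Actn2 encodes the actinin that cross-links thin filaments of opposite polarity in all fibre types. Its probe set (160570_at) was dim and read 91.3, 106.5 and 125.7 in the knockout, against 56.3, 75.2 and 89.5 in wild type. The groups did not overlap, by a small margin between knockout replicate 1 and wild-type replicate 3, and the log2 difference was 0.56 ± 0.21 (SE). Ldb3 encodes the PDZ and LIM scaffold known as ZASP or Cypher, which binds actinin. It read 3480, 4875 and 4472 in the knockout, against 3658, 3765 and 4072 in wild type (160354_at). Knockout replicate 1 was the lowest of all 6 arrays and knockout replicate 2 the highest. The log2 difference of Ldb3 was 0.15 ± 0.12 (SE), and ran from 0.044 without knockout replicate 2 to 0.29 without knockout replicate 1.

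Tcap, or telethonin, caps the end of titin at the Z-disc and is a binding partner of Csrp3. It read 115.8, 118.6 and 83.3 in the knockout, against 97.9, 146.1 and 127.2 in wild type (92602_at). Its mean was lower in the knockout, with overlapping groups and a log2 difference of -0.22 ± 0.20 (SE), or -0.059 without knockout replicate 3 and -0.38 without wild-type replicate 1. Des encodes desmin, the intermediate filament that links neighbouring Z-discs to each other and to the membrane. It read 665.0, 571.0 and 655.0 in the knockout, against 570.5, 608.7 and 566.8 in wild type (100997_at). Desmin was the steadiest of the 9 genes, with 1.17-fold between its highest and lowest array, and its log2 difference was 0.11 ± 0.11 (SE), or 0.072 without knockout replicate 1 and 0.18 without knockout replicate 2.

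Of the sarcomeric actins, Acta1 encodes skeletal alpha-actin, the main thin-filament actin of adult muscle, and read 12013, 11327 and 12167 in the knockout, against 8177, 11141 and 9999 in wild type (100381_at). The groups did not overlap, but knockout replicate 2 and wild-type replicate 2 were only 1.67% apart. The log2 difference was 0.29 ± 0.11 (SE), and 0.16 without wild-type replicate 1, the lowest array. Acta1 lay at or near the top of the scale: it was the brightest probe set on knockout replicates 1 and 3, and on the other arrays the highest value of any probe set was 13353 (knockout replicate 2) and 8779 to 11894 (wild type).

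Actc1 encodes cardiac alpha-actin, the form of the heart and of developing skeletal muscle. Its brightest probe set (101029_f_at) read 745.3, 928.9 and 757.2 in the knockout, against 896.4, 721.4 and 845.1 in wild type. The groups overlapped and the log2 difference was -0.020 ± 0.13 (SE), which turned positive under 5 of 18 alternative settings. The other probe set (101028_i_at) read 165.8, 188.8 and 138.6 in the knockout, against 183.1, 118.4 and 136.1 in wild type, with a log2 difference of 0.19 ± 0.19 (SE). Skeletal and cardiac alpha-actin are near-identical proteins, and in this array design the letter f in a probe set's name marks probes that match more than 1 member of a gene family, so which actin this signal comes from is uncertain. The array order differed from that of Acta1: Actc1 was highest on knockout replicate 2 and lowest on wild-type replicate 2, whereas Acta1 was highest on knockout replicate 3 and lowest on wild-type replicate 1.

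**Figure D2:**
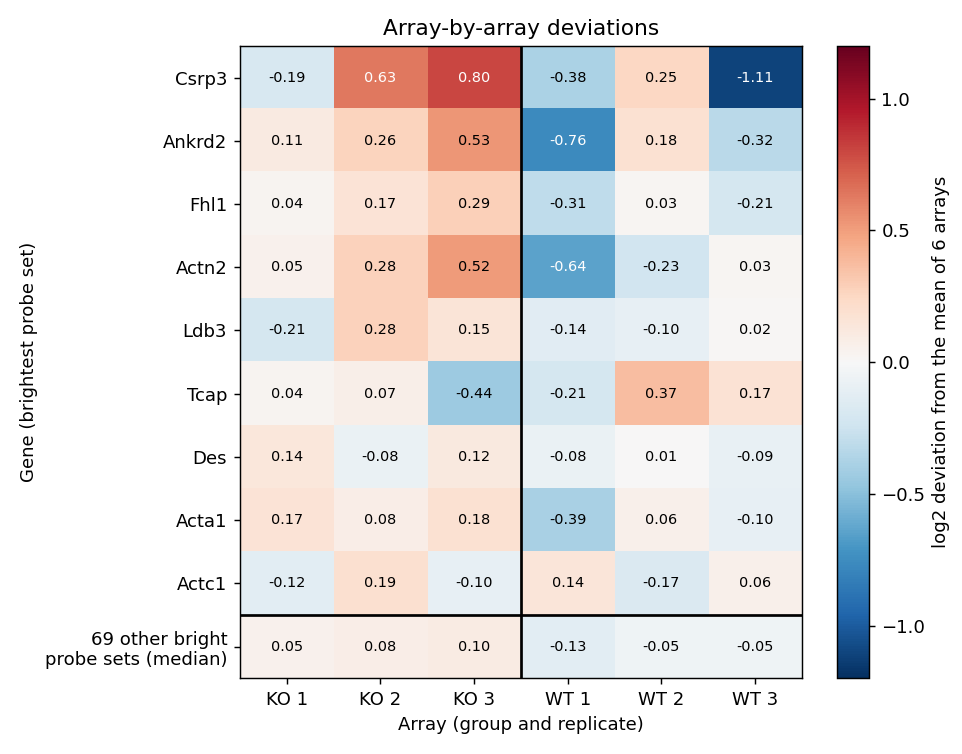
Deviation of each gene's log2 intensity from its mean over the 6 arrays (colour and printed value), knockout arrays left and wild-type arrays right, with the median of 69 other bright probe sets in the bottom row. Csrp3, Ankrd2, Fhl1, Actn2 and Acta1 are highest on knockout replicate 3, and the bright probe sets are above their mean on each knockout array.

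Read array by array, 5 of the 9 genes (Csrp3, Ankrd2, Fhl1, Actn2 and Acta1) were highest on knockout replicate 3, and 4 (Ankrd2, Fhl1, Actn2 and Acta1) were lowest on wild-type replicate 1. Csrp3 and Des were lowest on wild-type replicate 3. Within the wild-type group, replicate 2 was the highest array for 6 genes (Csrp3, Ankrd2, Fhl1, Tcap, Des and Acta1). Within the knockout, replicate 1 was the lowest array for Csrp3, Ankrd2, Fhl1, Actn2, Ldb3 and Actc1. The same arrays thus stood at the ends of the range for several genes, while Ldb3, Tcap, Des and Actc1 had orders of their own.

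Pearson's r of log2 intensity over the 6 arrays had a median of 0.44 over the 36 pairs of genes, 22 of them above 0, against -0.00035 over all pairs of tested probe sets and 0.057 among the 1274 brightest. With the group means removed the median was 0.23, with 23 of 36 above 0, against 0.00032 over all pairs and 0.020 among those 1274, and it was 0.068 without wild-type replicate 2. Both medians depended on the normalization. After quantile normalization, described below, they were 0.23 over the 6 arrays and 0.029 with group means removed. After cyclic loess they were 0.22 and 0.14, and with median scaling 0.57 and 0.26. The closest pair was Ankrd2 and Fhl1, at 0.97 over the 6 arrays and 0.96 with group means removed. Ankrd2 and Acta1 followed at 0.95 and 0.90, and Csrp3 and Fhl1 had 0.86 and 0.76. Csrp3 and Ankrd2, both stretch sensors, were at 0.77 and 0.58. Actc1 ran against Des (-0.80 and -0.94) and Acta1 (-0.57 and -0.77). All pairs share the same 6 arrays and their scaling, so these values describe 6 points and no test is given. The genes were also chosen with the group difference of several known, and that difference enters r over the 6 arrays.

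**Figure D3:**
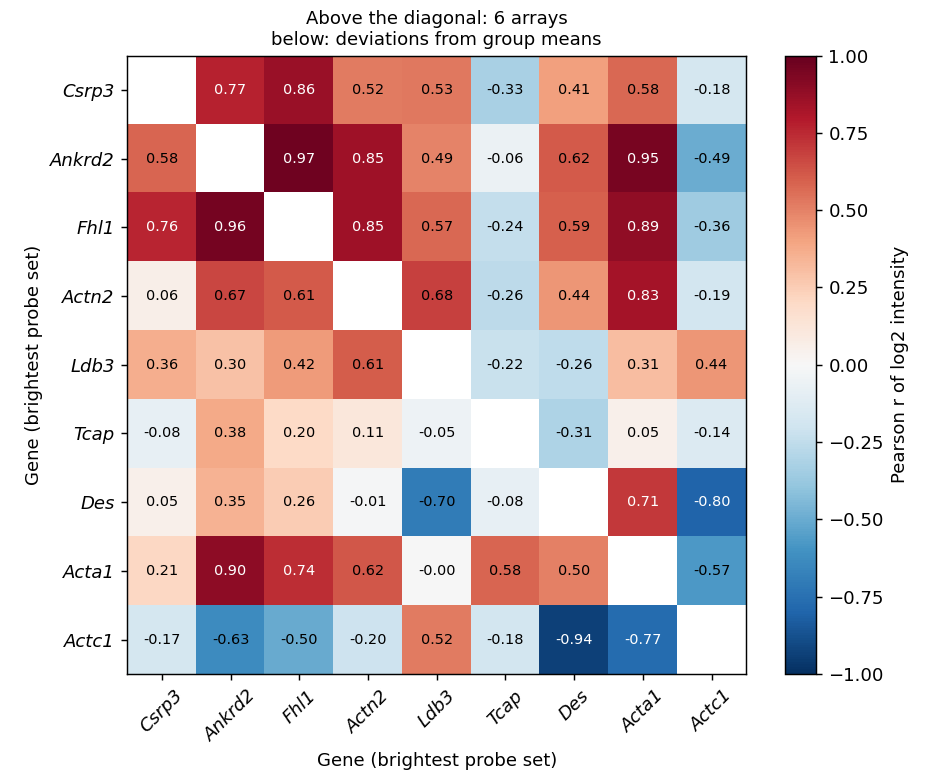
Pearson's r of log2 intensity between the brightest probe sets of the 9 genes, over the 6 arrays above the diagonal and of deviations from group means below it. Ankrd2 and Fhl1 have the highest value on both sides of the diagonal (0.97 and 0.96), and the Actc1 row and column are mostly below 0.

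The genes whose pattern over the 6 arrays was most like that of Csrp3, among 4910 others, were Dhrs7 (r = 0.996), Tmed4 (0.984), Nrbp1 (0.976), Uqcr10 (0.974) and Gpn1 (0.971). Their amplitude was smaller: Dhrs7, a short-chain dehydrogenase, read 180.6, 204.5 and 217.9 in the knockout, against 173.1, 194.9 and 152.4 in wild type. Most like Acta1 were Cndp2 (0.993), Wnt10a (0.989), Rrm1 (0.981), Abcf2 (0.979) and Snrpb (0.977). With only 6 points, r passed 0.9 for 33 genes against Csrp3 and for 52 against Acta1, and none of those named encodes a sarcomere protein.

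Bright probe sets as a whole were also higher in the knockout. Among 69 other probe sets with a mean intensity above 3000, a limit set after the values were seen, 65 had a positive log2 difference, with a median of 0.17. In 30 of them every knockout array was above every wild-type array, where this held for 5.45% of all probe sets tested. Their median deviation was 0.097 on knockout replicate 3 and -0.13 on wild-type replicate 1, the arrays on which several of the 9 genes were highest and lowest. Fhl1, Ldb3 and Acta1 were above that limit. Ankrd2, with a mean of 3569 in the knockout and 2425 in wild type, lay just below it. Which of the 9 genes count as bright thus depends on the limit. After quantile normalization, which gives each array the same distribution, the median of those 69 was 0.0015 and the log2 differences of Acta1, Fhl1 and Ldb3 were 0.093, 0.15 and 0.036. Those of Csrp3, Ankrd2 and Actn2 were then 0.75, 0.47 and 0.61, and those of Tcap, Des and Actc1 -0.20, 0.077 and -0.067. Actn2 was then the only one of the 9 genes whose groups did not overlap, and the same was found after cyclic loess. The share of all probe sets without overlap was not computed after these normalizations. On the deposited values it was 10.7% of those tested, in either direction. The 5′ control of the array for Gapdh, which is not a muscle Z-disc gene, read 7481 to 9541 in the knockout and 6135 to 7881 in wild type, with overlap. Its middle control overlapped as well, at 8834 to 10933 in the knockout and 7324 to 8910 in wild type. The 3′ control did not overlap, at 7792 to 9109 in the knockout and 6897 to 7731 in wild type.

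**Figure D4:**
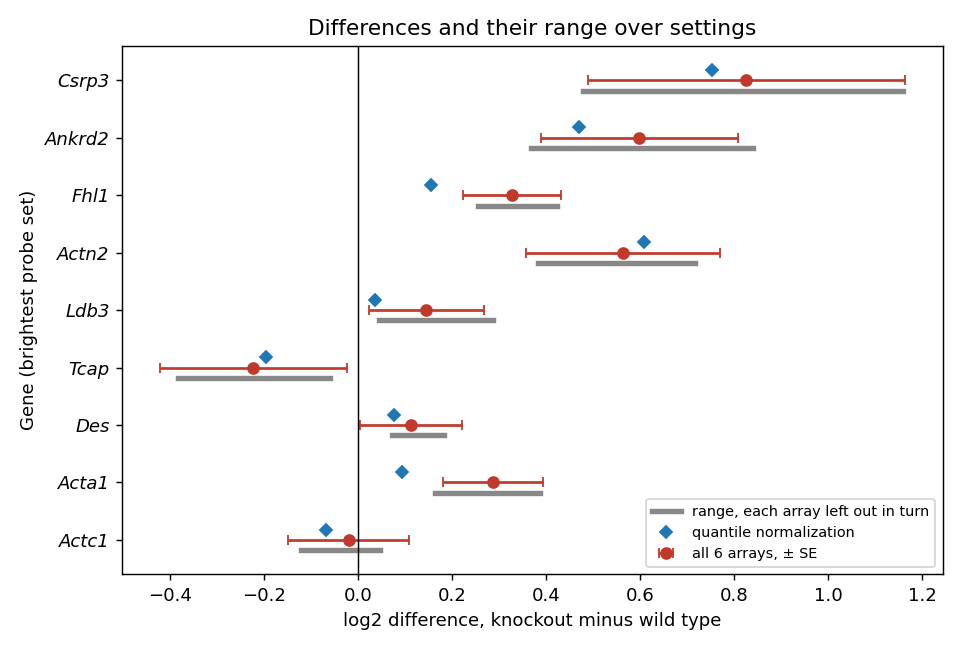
Log2 difference (knockout minus wild type) of the brightest probe set of each gene: red points with SE for all 6 arrays, grey bars for the range when each array is left out in turn, blue diamonds after quantile normalization. Csrp3, Ankrd2 and Actn2 keep values of 0.47 or more after quantile normalization, while Fhl1, Acta1 and Ldb3 lie nearer 0.

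The sample titles share a prefix on 4 arrays (replicates 1 and 3 of each group) and another on the other 2 (replicate 2 of each group), and what it stands for is not given. Within the 4 arrays the log2 differences were 1.05 for Csrp3, 0.86 for Ankrd2, 0.42 for Fhl1, 0.42 for Acta1 and 0.59 for Actn2. Between the other 2 arrays they were 0.38, 0.079, 0.14, 0.024 and 0.50 for the same genes, with 1 array per group and so no error. Ldb3 differed by 0.032 and 0.37, Tcap by -0.18 and -0.30, Des by 0.21 and -0.092, and Actc1 by -0.21 and 0.36. The number of genes with a positive difference was 7 of 9 in each subset, but not the same 7.

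Other proteins of the same structures were read from 5 lists of Z-disc, titin-linked, costamere, actin and regulatory genes, which were drawn up with earlier results of these data known. The lists held 94 gene symbols, with older and newer names of some genes counted separately. Of the genes, 56 were on the array and 50 passed the filter. None of the 50 passed the adjusted threshold in limma (adjusted p of at least 0.923), and at an unadjusted p under 0.05 there were 7 higher and 1 lower, where 2.81% of all probe sets tested were higher and 2.43% lower. Their median log2 difference was 0.055, against -0.016 over all probe sets tested and 0.054 among the 1274 brightest. There were 31 higher and 19 lower, where 46.8% of all probe sets tested and 65.4% of the 1274 brightest were higher. The groups did not overlap for 6 genes with the knockout higher and for 1 with it lower. Over all probe sets tested these shares were 5.45% and 5.23%. Since earlier results were known when the lists were drawn up, nothing about the listed genes is read from these counts or from those of single lists below.

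Of 14 other Z-disc genes 8 were higher and 6 lower, with a median of 0.041, or 0.11 with median scaling, -0.0030 after cyclic loess and 0.024 without wild-type replicate 1. Pdlim1, a PDZ and LIM protein that binds actinin, read 1563, 1631 and 1736 in the knockout, against 1395, 1290 and 1319 in wild type, with a log2 difference of 0.30 ± 0.09 (SE) and no overlap. Capzb, the capping protein subunit that anchors thin filaments at the Z-disc, read 696.1, 783.0 and 813.9 in the knockout, against 550.4, 670.4 and 579.4 in wild type (0.35 ± 0.12). Its partner Capza1 was at -0.24 ± 0.15, or -0.15 without wild-type replicate 1 and -0.37 without wild-type replicate 2. Actn3, the actinin of fast fibres and the paralog of Actn2, read 256.8, 340.2 and 79.0 in the knockout, against 519.4, 922.2 and 309.9 in wild type, a log2 difference of -1.48 ± 0.53, or -0.84 without knockout replicate 3. The actinins thus had differences of opposite sign, and a test of one against the other was not made.

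The titin-linked list had 6 tested genes, 4 of them higher, with a median of 0.24 that was 0.12 without wild-type replicate 3 and 0.40 without wild-type replicate 2. Nrap, which anchors actin at the ends of myofibrils, read 2807, 3344 and 3214 in the knockout, against 2120, 2580 and 2377 in wild type, with no overlap and a log2 difference of 0.40 ± 0.11 (SE). Ankrd1, the close relative of Ankrd2 that is also induced by stretch, was dim at 51.3, 61.8 and 48.4 in the knockout and 36.6, 54.4 and 27.8 in wild type, a difference of 0.49 ± 0.29, or 0.26 without wild-type replicate 3 and 0.75 without wild-type replicate 2. Xirp1, an actin-binding protein of muscle ends, and the titin-bound protease Capn3 were at 0.20 ± 0.17 and 0.29 ± 0.15, or 0.035 and 0.19 without wild-type replicate 3 and 0.36 and 0.44 without wild-type replicate 2.

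Of 10 costamere and intermediate filament genes 6 were higher, with a median of 0.016, or -0.0072 when knockout replicate 1 was left out and 0.11 when wild-type replicate 2 was. Nestin, Nes, a filament partner of desmin at nerve and tendon junctions, read 283.0, 265.6 and 278.8 in the knockout, against 204.0, 266.3 and 184.5 in wild type (0.35 ± 0.15, SE). Lamin A, Lmna, was at 0.14 ± 0.12, the focal adhesion protein Pxn at -0.14 ± 0.15 and talin, Tln1, at 0.12 ± 0.13. Leaving out 1 array moved each of these: Lmna was at 0.036 and Tln1 at 0.017 without wild-type replicate 1, Tln1 at 0.24 and Pxn at -0.23 without wild-type replicate 2, and Pxn at -0.043 without knockout replicate 2. Of 9 other actin genes and actin-end proteins 4 were higher, with a median of -0.0053, or 0.081 without wild-type replicate 1. Profilin, Pfn1, was at 0.59 ± 0.24 with overlapping groups, and gelsolin, Gsn, and the cofilins Cfl1 and Cfl2 were at -0.16, -0.094 and 0.088. Gsn was at 0.0059 and Cfl2 at 0.0040 without wild-type replicate 3, and Cfl1 at -0.0016 without knockout replicate 2.

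Regulators of actin and Z-disc genes (SRF coactivators, MEF2 factors and the calcineurin pathway) had 11 tested genes, 9 of them higher, with a median of 0.19, or 0.11 without wild-type replicate 1. Mef2c read 641.8, 619.2 and 625.8 in the knockout, against 527.5, 549.8 and 469.8 in wild type, with no overlap and a log2 difference of 0.29 ± 0.11 (SE). Mrtfa, the SRF coactivator that senses actin, read 116.0, 85.7 and 129.2 in the knockout, against 94.1, 76.5 and 66.5 in wild type (0.47 ± 0.20). Nfatc1, the calcineurin-dependent factor of slow fibres, and Mef2a also had groups that did not overlap, at 0.34 ± 0.17 and 0.21 ± 0.11. The knockout was thus higher without overlap for 3 of the 11, where this held for 5.45% of all probe sets tested. Nothing about the regulators is read from this count, since their list was drawn up with earlier results of these data known. Srf itself had no probe set with a single symbol.

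**Figure D5:**
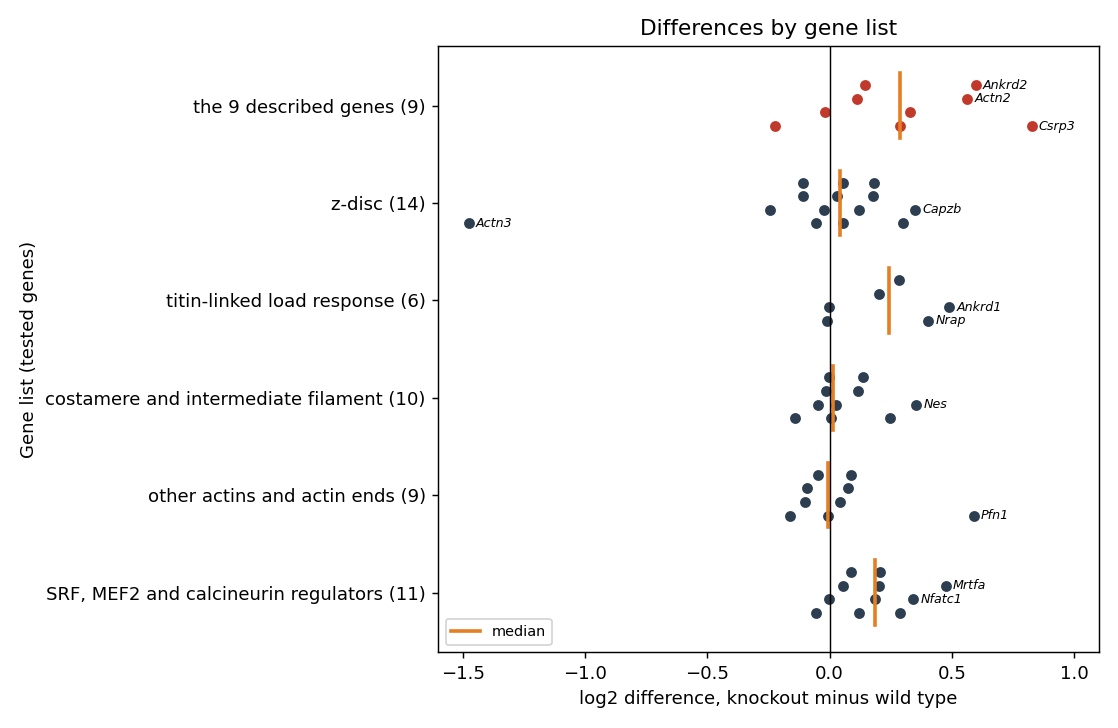
Log2 difference (knockout minus wild type) of each tested gene, by list, with the median as an orange bar and the number of genes in brackets; genes beyond 0.33 in size are named. The 9 described genes have a median of 0.29, the titin-linked list 0.24 and the regulator list 0.19, and the other lists lie near 0 with Actn3 at -1.48.

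Markers of other cells and fibre types were summed over the brightest probe set of each gene. The sum of 8 slow-fibre markers was 54209 to 61919 in the knockout and 44434 to 57102 in wild type, and that of 10 fast-fibre markers was 36926 to 37745 in the knockout and 32899 to 37924 in wild type. The slow sum was lowest, and the fast sum nearly so at 32925, on wild-type replicate 1, the array on which Ankrd2, Fhl1, Actn2 and Acta1 were lowest. Of the 10 fast-fibre markers 7 had a higher mean of log2 values in the knockout, and of the 8 slow-fibre markers 6 did. The fast markers Myl1, Tnnt3, Tnni2 and Atp2a1 were higher without overlap, with log2 differences of 0.27, 0.24, 0.29 and 0.23. The slow marker Myl3 was higher without overlap as well, at 0.21. The fast list also holds genes that were lower in the knockout. The IIb myosin heavy chain gene Myh4 read 211.0, 790.7 and 73.8 in the knockout, against 1610, 3671 and 499.4 in wild type (log2 difference -2.64, overlapping groups). Actn3 was lower as given above, and parvalbumin, Pvalb, was at -0.32. Markers of immature fibres, which also express Actc1, summed to 578.7 to 592.6 in the knockout and 521.5 to 687.9 in wild type. Within that sum Ncam1, a cell adhesion molecule, read 61.5, 56.9 and 75.3 in the knockout, against 40.8, 38.8 and 35.8 in wild type, without overlap, and myogenin, Myog, read 91.0, 103.6 and 49.6 in the knockout, against 69.2, 22.2 and 24.8 in wild type. The acetylcholine receptor subunit Chrna1 had a log2 difference of -0.40 and Myod1 one of -0.24. Another receptor subunit, Chrng, read 9.8, 12.6 and 5.0 in the knockout, against 15.9, 15.3 and 25.6 in wild type, lower without overlap. Myf5 had a mean of 13.5 in the knockout and 17.0 in wild type. Of all probe sets tested, 10.7% did not overlap in either direction. These markers were named after their values were seen, and none passed the adjusted threshold. Of the 10 immature-fibre markers 9 were on the array, 4 of them with a higher mean of log2 values in the knockout. Chrng, Myf5 and the embryonic and neonatal heavy chains Myh3 and Myh8 did not pass the filter. Vascular smooth muscle markers summed to 894.0 to 1062 in the knockout and 905.7 to 985.4 in wild type, endothelial markers to 837.8 to 904.0 in the knockout and 878.3 to 947.5 in wild type, and fibroblast markers to 4585 to 4979 in the knockout and 4346 to 5446 in wild type. Adipocyte markers summed to 364.8 to 394.8 in the knockout and 393.8 to 629.4 in wild type, immune markers to 608.4 to 761.0 in the knockout and 646.9 to 1014 in wild type, and Schwann cell markers to 346.9 to 430.6 in the knockout and 363.6 to 486.4 in wild type. Each list had 4 to 10 genes on the array, and no marker on the array was at or below the floor on all 6 arrays. All 9 sums overlapped between the groups, and their part in the differences above was not tested.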

How the data were processed

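Soleus RNA was measured on Affymetrix mouse arrays, 1 per sample. The authors deposited signal intensity values on a linear scale, scaled to a common level as the values show, with software not given in the sources used here. The 9 genes and all gene lists were chosen with earlier results of these data known. Of 12488 probe sets, 66 controls were set aside, and 10833 of the others had 1 symbol in the array's annotation table (396 had several and 1193 none); a RefSeq table changed 0 symbols.

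Values under the 20th percentile, 7.8, were set to it and taken to log2. Probe sets above 39.4, the median, on at least 3 of 6 arrays went into limma 3.58.1 under R 4.3.3 (linear fit, eBayes with trend, two-sided, Benjamini-Hochberg over 6369 probe sets), and the step was tested on simulated data. Whether each array is a separate animal is not stated, so errors and p-values cover only the spread between these arrays. A gene was read by its brightest probe set. Genes named from lists were the up to 4 with the smallest p, and likeness was Pearson's r to Csrp3 and Acta1. The alternatives were 3 normalizations, 2 floors, 2 filters, 3 variance models, 2 blocks, each array left out and all member probe sets. The number of arrays limits precision: the median SE was 0.18. Figures used matplotlib 3.10.9 in Python 3.11.15.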

Additional observations from a re-analysis of the deposited data

How the results depend on the processing

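The count of genes with a positive difference stayed at 7 or 8 of 9 under 18 alternatives, and was 9 of 11 over all tested member probe sets. The median log2 difference of the 9 genes, 0.29, was 0.093 after quantile normalization and 0.095 after cyclic loess. When arrays were left out it ran from 0.16 (without wild-type replicate 1) to 0.39. The median r between genes ran from 0.22 (cyclic loess) to 0.57 (median scaling) over 6 arrays. Within groups it ran from 0.029 (quantile normalization) to 0.37 (without knockout replicate 2), and was 0.046 with adjacent title numbers as a replicate block. Over all probe sets 0 passed, but 1 did without the filter (Hoxd1), 1 with adjacent title numbers as a replicate block (Myh4) and 0 to 1 when arrays were left out (Tuba1a, without knockout replicate 1). None of these is among the 9 genes. Taken across probe sets, arrays with the same number did not deviate together (r from -0.0052 to 0.035), and arrays with different numbers ran from -0.056 to 0.067. Single genes could still follow the number. Myh4, Actn3 and Pvalb were highest on replicate 2 and lowest on replicate 3 in both groups. The labels state no pairing, and whether these arrays are paired cannot be told from the r values. Applying these settings to the lists was decided after seeing the data. Gsn turned to 0.0059 without wild-type replicate 3, Actn3 ran from -1.89 to -0.84, and the median of the other actin genes ran from -0.063 to 0.081. Intensities near the floor carry no order.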
